A study of Mus musculus with 10 samples.

Results

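Podoplanin (Pdpn), multimerin 1 (Mmrn1), Thy-1 (Thy1), Fxyd6, and Cd9 are 5 lymphatic marker genes. Their proteins sit on, in, or next to the surface of lymphatic endothelial cells (LECs). The genes were chosen by name as markers of the whole lymphatic endothelium, with earlier results of these data known. Stability across genotypes, treatment, and LEC types and a low level in valve LECs were in view at the choice. A lack of change in these 5 genes is therefore no independent result. They were 5 of 42558 genes joined over 8 Smart-seq plates and 5 of 32285 genes in 2 droplet (10x) libraries of mouse ear skin. Each genotype had 2 plates: Tie1 fl/fl and Tie1 Tie2 fl/fl mice without Cre, and mice of the same strains with Prox1-CreERT2, called Tie1 iΔLEC and Tie1 Tie2 iΔLEC below. All 4 genotypes, the controls included, had been given 62.5 µg of 4-hydroxytamoxifen into the stomach on postnatal days 1 to 5. Prox1-CreERT2 restricted the deletion to cells with active Prox1. By the paper's account, cells of the deleted pups were compared weeks later, past postnatal day 21. The plates held CD31+ PDPN+ cells free of leukocyte and erythroid markers, so podoplanin protein was itself a sorting criterion. Of the 8 plates, replicate 1 of Tie1 iΔLEC and replicate 1 of Tie1 fl/fl were female and the other 6 were male. The droplet libraries held cells sorted on CD31 from male wild-type C57Bl/6j mice, 1 library after mouse IgG and 1 after an Ang2-blocking antibody (Ang2 Ab), each at 20 mg/kg from postnatal day 16 to 21. The number of mice behind a plate or library was not given, so p-values measure the spread between plates only.

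Podoplanin is a mucin-type membrane glycoprotein that binds the platelet receptor CLEC-2 and keeps blood and lymph vessels apart. Multimerin 1 is a large secreted glycoprotein of the EMILIN family, made by endothelium and platelets. Thy-1 (CD90) is a glycosylphosphatidylinositol-anchored immunoglobulin-superfamily protein that binds integrins, Fxyd6 is a small membrane subunit that modulates the Na,K-ATPase, and CD9 is a tetraspanin that organizes membrane partners such as integrins. Lymphatic capillaries take up fluid, collectors carry it, and valve LECs line the leaflets that prevent backflow. Tie1 and Tie2 (encoded by Tek) are the endothelial receptors of the angiopoietin pathway, of which Ang2 is a ligand.

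The plates held 71309205 to 110741537 reads in total, and 308 to 364 wells per plate were kept as LECs, 2756 in all. The 8 LEC markers summed to between 6969 and 10290 CPM on the plates. CPM of a plate are reads per 1000000 reads of its LECs, scaled by the TMM factors of edgeR (0.929 to 1.078). CPM of a class, a single well, or a removed cluster are reads per 1000000 reads without these factors. The deletion was visible in the targeted genes. Tie1 was at 2171 and 2863 CPM in Tie1 fl/fl, 673.7 and 659.3 CPM in Tie1 iΔLEC, 2734 and 2523 CPM in Tie1 Tie2 fl/fl, and 761.0 and 463.5 CPM in Tie1 Tie2 iΔLEC. Tek was at 33.1 and 53.6 CPM in Tie1 Tie2 iΔLEC and between 208.7 and 339.1 CPM on the other 6 plates. The 2 droplet libraries shared 5 cell barcodes.

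All 5 genes were read on every plate, and 93.0% of the 2756 LEC wells held at least 1 read of each. Shares of wells with a read could differ between plates at a similar level. Tie1 was read in 100% of LEC wells on replicate 1 of Tie1 iΔLEC and in 70.9% on replicate 2, at 673.7 and 659.3 CPM. Pdpn was at 431.0 and 639.2 CPM in Tie1 fl/fl, 402.5 and 472.7 CPM in Tie1 iΔLEC, 565.6 and 463.1 CPM in Tie1 Tie2 fl/fl, and 800.7 and 670.5 CPM in Tie1 Tie2 iΔLEC. The 2 Tie1 Tie2 iΔLEC plates were the highest of the 8. Mmrn1 was at 1942 and 2572 CPM in Tie1 fl/fl, 2085 and 2236 CPM in Tie1 iΔLEC, 2813 and 2708 CPM in Tie1 Tie2 fl/fl, and 2882 and 2940 CPM in Tie1 Tie2 iΔLEC. It was the most abundant of the 5 in reads, and its 8 values spanned a 1.51-fold range.

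Thy1 was at 180.2 and 163.6 CPM in Tie1 fl/fl, 177.3 and 142.9 CPM in Tie1 iΔLEC, 110.1 and 153.3 CPM in Tie1 Tie2 fl/fl, and 291.9 and 452.1 CPM in Tie1 Tie2 iΔLEC. The last 2 plates stood above the other 6. Fxyd6 was at 1441 and 1868 CPM in Tie1 fl/fl, 1317 and 1440 CPM in Tie1 iΔLEC, 2002 and 1822 CPM in Tie1 Tie2 fl/fl, and 1203 and 1036 CPM in Tie1 Tie2 iΔLEC. Here the same 2 plates were the lowest. Cd9 was at 922.0 and 1185 CPM in Tie1 fl/fl, 895.1 and 991.5 CPM in Tie1 iΔLEC, 1080 and 1106 CPM in Tie1 Tie2 fl/fl, and 962.4 and 1211 CPM in Tie1 Tie2 iΔLEC. The Cd9 plates of all genotypes ran into each other, within a 1.35-fold range.

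**Figure D1:**
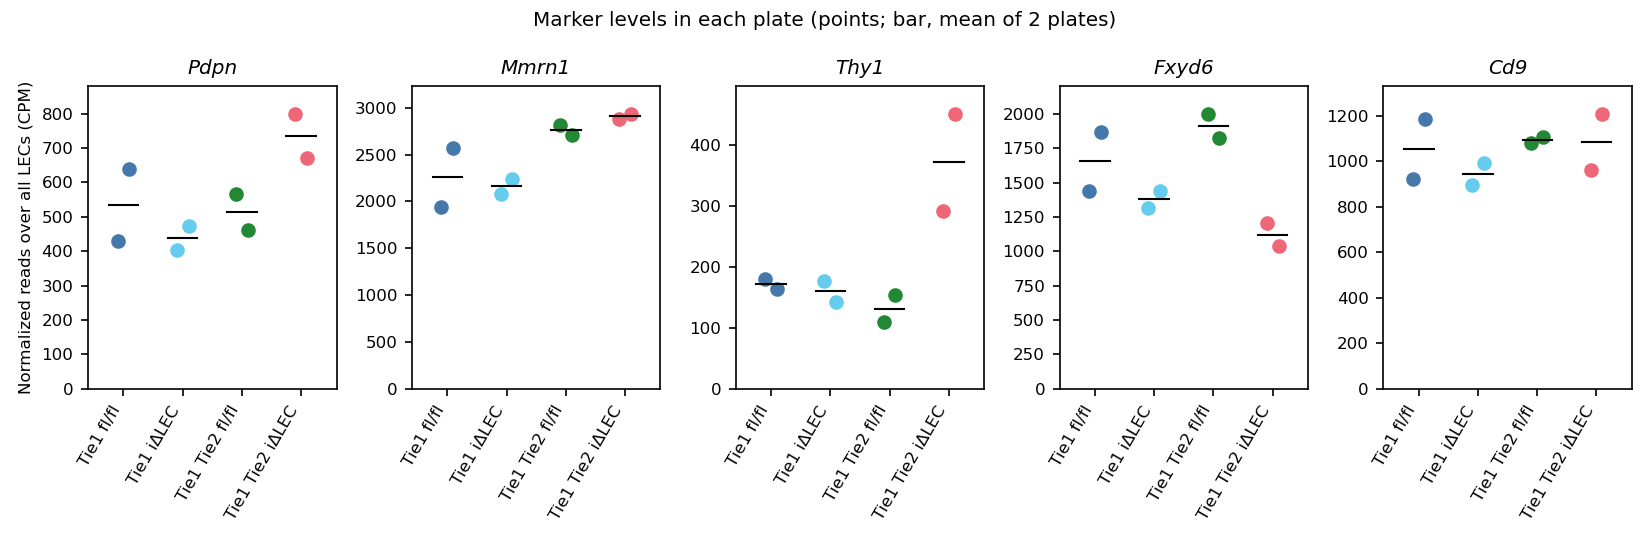
Normalized reads (CPM) of each gene summed over the LEC wells of a plate, on linear axes from 0, with 1 point per plate and a bar at the mean of the 2 plates of a genotype. The Tie1 Tie2 iΔLEC plates were the 2 highest for Thy1 (291.9 and 452.1 CPM) and the 2 lowest for Fxyd6 (1203 and 1036 CPM), and the Cd9 values of all 8 plates lay between 895.1 and 1211 CPM.

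Cd9 varied least from plate to plate. Its SD over the 8 plates was 0.16 on the log2 CPM scale, and 9.81% of the 2476 genes that averaged 100 CPM or more had a smaller one. The SD was 0.23 for Mmrn1 (33.0% of genes smaller), 0.33 for Fxyd6 (66.2%), 0.35 for Pdpn (70.2%), and 0.64 for Thy1 (93.8%), against a median of 0.28 over these genes. Over the 4 control plates alone the order from least to most variable was Cd9 (0.15), Fxyd6 (0.21), Mmrn1 (0.24), Pdpn (0.26), and Thy1 (0.31), against a median gene at 0.22. Fxyd6 was thus below the median gene among controls and above it over all plates. These are descriptions of the plates, with no test. The genes had been picked with stability in view, so a small spread is no result about them.

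Per kilobase of exon, the genes ranked differently from their reads. Cd9 averaged 510.8 ± 58.3 CPM per kilobase (SD, n = 8 plates), Mmrn1 429.8 ± 65.6, Fxyd6 369.1 ± 84.0, Pdpn 305.8 ± 76.4, and Thy1 69.8 ± 37.3. Neighbours in this order from Cd9 down to Pdpn lay closer than the sum of their SDs, whereas Thy1 lay below the other 4 by more. In the GENCODE M21 annotation of GRCm38 Pdpn is at chr4:143267431-143299564 (minus strand, 1817 exonic bases), Mmrn1 at chr6:60924976-60989378 (plus, 5868), and Cd9 at chr6:125460266-125494791 (minus, 2044). Thy1 at chr9:44043384-44048579 (plus, 2995) and Fxyd6 at chr9:45370185-45396159 (plus, 4107) lie on the same chromosome.

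None of the 5 genes passed the test after Tie1 deletion. In edgeR (quasi-likelihood test, Benjamini-Hochberg adjusted over 19931 genes) 0 of 5 were called at an adjusted p under 0.05, where 0% of all genes were called. At an unadjusted p under 0.05 there were 853 genes and 0 members, and DESeq2 called 176 genes (0.883%) and 0 members. The log2 fold change of Tie1 iΔLEC over Tie1 fl/fl was -0.30 ± 0.24 (SE) for Pdpn, -0.07 ± 0.17 for Mmrn1, -0.11 ± 0.29 for Thy1, -0.27 ± 0.18 for Fxyd6, and -0.17 ± 0.20 for Cd9. All 5 edgeR adjusted p-values were 1. The 95% intervals left room for a change of either sign, for Pdpn from -0.84 to 0.25, for Thy1 from -0.77 to 0.54, and for Mmrn1 from -0.46 to 0.32. Only Fxyd6 had both deleted plates outside the range of the controls, on the low side with 1440 against 1441 CPM at the nearest, whereas the plates of the groups did not overlap for 28.8% of all genes. Tie1 itself had a log2 fold change of -1.92 ± 0.25 with an edgeR adjusted p of 0.25, so in this contrast the test did not call the deleted gene either.

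With Tie1/-2 deletion, Thy1 and Fxyd6 had the largest log2 fold changes of the 5, with opposite signs, and neither passed the test, although both did once the table layout of the plates was a term of the fit. Thy1 was 2.76-fold higher in Tie1 Tie2 iΔLEC than in Tie1 Tie2 fl/fl, with a log2 fold change of 1.47 ± 0.29 (SE; 95% interval 0.80 to 2.13) and an edgeR adjusted p of 0.0672. Fxyd6 had a log2 fold change of -0.81 ± 0.18 (95% interval -1.23 to -0.39) and an edgeR adjusted p of 0.11. Pdpn had 0.48 ± 0.24 (-0.07 to 1.02), Mmrn1 0.04 ± 0.17 (-0.35 to 0.43), and Cd9 -0.04 ± 0.20 (-0.49 to 0.41). The intervals of the last 3 genes spanned 0.

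In this contrast 0 of 5 members were called, where edgeR called 228 genes, or 1.14% of those tested. At an unadjusted p under 0.05 there were 2100 genes and 2 members, Thy1 and Fxyd6, and DESeq2 called 1014 genes (5.09%) and the same 2 members. Across 19 alternatives in edgeR, DESeq2, and limma the adjusted p of Thy1 ran from 7.49e-05 to 0.428 and that of Fxyd6 from 0.0257 to 0.626. With 1 of the 8 plates left out at a time, Thy1 was called by edgeR only without replicate 1 of Tie1 Tie2 iΔLEC, the plate with the lower Thy1 of the pair (log2 fold change 1.72, adjusted p = 0.0413). That fit assumes that the lone deleted plate varied like the other groups, and without another plate the edgeR adjusted p was up to 0.428.

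The plate tables came in 2 layouts, and replicate 1 of Tie1 Tie2 fl/fl and of Tie1 Tie2 iΔLEC had 1 layout and both replicates 2 the other. From control to deleted plate Thy1 went from 110.1 to 291.9 CPM in the first layout and from 153.3 to 452.1 CPM in the second, and Fxyd6 from 2002 to 1203 CPM and from 1822 to 1036 CPM. The difference thus had the same sign in both layouts. With layout as a term edgeR called both genes, at adjusted p-values of 0.021 for Thy1 and 0.0276 for Fxyd6, among 236 of 19931 genes called, and with the replicate number within a strain as a block it called Thy1 alone (adjusted p = 0.0331; Fxyd6 0.0614), among 174 genes. In TMM-scaled CPM, both deleted plates lay above both controls for Pdpn, Mmrn1, and Thy1 and below them for Fxyd6. The plates of the groups did not overlap for 37% of all genes. Without the TMM factors the Mmrn1 plates overlapped. Mmrn1 had 179658 of 67109050 reads on replicate 1 of Tie1 Tie2 iΔLEC and 226928 of 80640530 on replicate 1 of Tie1 Tie2 fl/fl. For comparison, Tie1 had -2.14 ± 0.25 (edgeR adjusted p = 0.00709) and Tek -2.82 ± 0.33 (edgeR adjusted p = 0.00696).

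**Figure D2:**
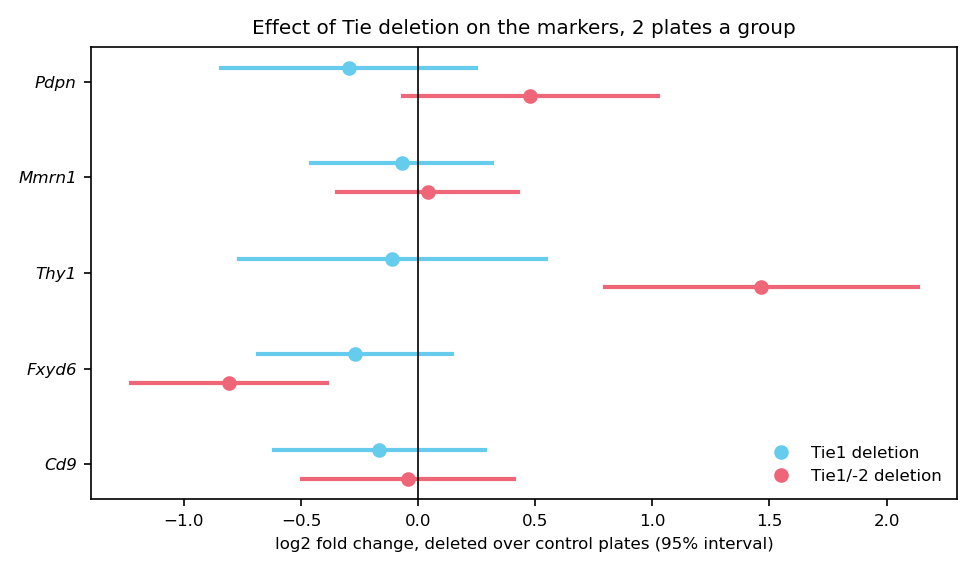
Log2 fold change of each gene in deleted over control plates (point) with its 95% interval (line) from edgeR, for Tie1 deletion and for Tie1/-2 deletion, 2 plates per group. With Tie1/-2 deletion the intervals of Thy1 (0.80 to 2.13) and Fxyd6 (-1.23 to -0.39) lay on 1 side of 0, although neither gene was called after adjustment.

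The effects of the 2 deletions were also set against each other. The log2 difference, Tie1/-2 deletion minus Tie1 deletion, was 1.58 ± 0.41 (SE) for Thy1 with an edgeR adjusted p of 0.34, 0.78 ± 0.34 for Pdpn, and -0.54 ± 0.26 for Fxyd6. It was 0.11 ± 0.24 for Mmrn1 and 0.12 ± 0.28 for Cd9. No member was called in this difference by edgeR, where 0.13% of genes were. At an unadjusted p under 0.05 there were 1464 genes and 2 members (Thy1 and Pdpn), and DESeq2 called Thy1 (2.22% of genes). The average effect of both deletions, 4 plates against 4, was -0.01 ± 0.11 for Mmrn1 (95% interval -0.27 to 0.24) and -0.10 ± 0.13 for Cd9 (-0.41 to 0.20). It was 0.09 ± 0.21 for Pdpn, 0.68 ± 0.34 for Thy1, and -0.54 ± 0.15 for Fxyd6. Here 0 of 5 members and 0.01% of genes were called by edgeR. At an unadjusted p under 0.05 there were 1550 genes and 1 member (Fxyd6), and DESeq2 called 613 genes (3.08%) and 0 members.

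Thy1 and Fxyd6 each differed in 1 direction in all LEC classes compared, some of which were clusters without a name. Wells were grouped into 12 LEC classes by clustering without the 5 genes, and 9 classes had at least 10 wells on all 4 plates of the Tie1 Tie2 strain. In 9 of these 9 classes both Tie1 Tie2 iΔLEC plates were above both Tie1 Tie2 fl/fl plates for Thy1, and in 9 of 9 they were below them for Fxyd6. Cd9 overlapped in 9 of 9 classes, Pdpn was higher in 5 and overlapped in 4, and Mmrn1 was higher in 3, lower in 3, and overlapped in 3. Of the 19931 genes tested, 0.196% were higher and 0.437% lower in 9 of 9 classes in this way, and in a single class 26.5% to 38.6% of genes did not overlap. Among the 2476 genes that averaged 100 CPM or more, a level all 5 members exceeded, 0.97% were higher and 1.70% lower in 9 of 9. The classes of a plate come from the same mice and are not independent. They are parts of the plate sums in which Thy1 and Fxyd6 had already differed, so 9 of 9 largely restates that difference. The shares above are over genes with and without a difference between the plates. In capillary-like LECs Thy1 was at 153.3 and 220.3 CPM in Tie1 Tie2 fl/fl and at 273.7 and 482.7 CPM in Tie1 Tie2 iΔLEC. In collector-like LECs it was at 93.9 and 121.8 CPM and at 293.3 and 460.3 CPM, respectively.

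Fitted within classes, Thy1 had a log2 fold change with Tie1/-2 deletion of 1.00 ± 0.35 (SE) in capillary-like, 1.75 ± 0.43 in collector-like, and 1.78 ± 0.48 in all valve-like LECs. Fxyd6 had -0.78 ± 0.23, -0.88 ± 0.22, and -0.38 ± 0.26. Pdpn had 0.31 ± 0.28 and 0.44 ± 0.41 in the first 2 classes and 1.48 ± 0.32 in valve-like LECs, and Mmrn1 had 0.99 ± 0.24 in valve-like LECs. The deleted plates held almost no wells of the valve-like cluster with the lowest Pdpn and Mmrn1, described below. In the Irx3 Irx5 valve-like cluster alone, a fit added after seeing the data, Pdpn had 1.104 ± 0.352, Mmrn1 0.47 ± 0.28, and Thy1 1.28 ± 0.52. Over 3 classes and both deletions 0 of 30 tests were called by edgeR, and DESeq2 called 3 (Pdpn and Thy1 in valve-like and Thy1 in collector-like LECs). At an unadjusted p under 0.05 there were 7 of the 30, each with Tie1/-2 deletion, where this held for 1293 of 14344 genes in capillary-like, 1720 of 14489 in collector-like, and 1107 of 14173 in valve-like LECs. With Tie1/-2 deletion edgeR called 0.112% of genes in capillary-like, 0.324% in collector-like, and 0.12% in valve-like LECs, and with Tie1 deletion 0% in each. DESeq2 called 4.02%, 7.66%, and 3.01% with Tie1/-2 deletion in the same order, and 0.23%, 0.449%, and 0.931% with Tie1 deletion.

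Markers of mural cells were read together with Thy1, which pericytes also express. The 6 mural markers summed to 9.33 to 51.02 CPM on the 4 control plates, 42.7 to 49.3 CPM in Tie1 iΔLEC, and 137.0 to 165.6 CPM in Tie1 Tie2 iΔLEC. In Tie1 Tie2 iΔLEC this was nearly all Kcnj8, a potassium channel subunit, at 129.6 to 163.2 CPM against 1.48 to 17.1 CPM on control plates. Of the other listed markers, Rgs5, Pdgfrb, Cspg4, and Notch3 were each at 0.129 CPM or less on the Tie1 Tie2 iΔLEC plates. Acta2 was at 2.34 to 7.11 CPM there and at 3.79 to 22.7 CPM on control plates. In the mural cells of the droplet libraries the same 6 markers summed to 13530 and 14120 CPM, with Thy1 at 183.9 and 253.7 CPM. Fibroblast markers summed to 70.9 to 314.9 CPM on control plates and 131.3 to 176.1 CPM in Tie1 Tie2 iΔLEC, inside the control range. BEC (blood endothelial) markers summed to 1061 to 1387 CPM on control plates and 1325 and 1855 CPM in Tie1 Tie2 iΔLEC, and leukocyte markers to 6.94 to 10.9 CPM and 14.8 to 20.7 CPM. Their part in the Thy1 and Fxyd6 values was not tested.

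Genes related to the 5 were followed as 6 lists of partners, relatives, and other lymphatic markers, 63 genes of which 61 were tested. With Tie1 deletion edgeR called 0 of 61, 2 had an unadjusted p under 0.05, and DESeq2 called 1 (Clca3a1). With Tie1/-2 deletion edgeR called 4 of 61, 1 up and 3 down, where 0.301% of all genes were called as higher and 0.843% as lower. The lists were chosen with earlier results of these data known, so an excess over these shares is no result about the lists. In the EMILIN and multimerin family with factor V, 1 of 4 tested genes fell. The list median of -3.18, against 0.00 over all genes, rests on this gene with Emilin2 and Emilin3, which were at 1.04 CPM or less on every plate and were not called, and Emilin1 had 0.33 ± 0.32 (SE). The gene that fell was Mmrn2, the endothelial relative of Mmrn1 and a marker used here for collector LECs. Mmrn2 was at 371.8 and 327.6 CPM in Tie1 Tie2 fl/fl and 33.4 and 17.2 CPM in Tie1 Tie2 iΔLEC, a log2 fold change of -3.83 ± 0.35 (SE; edgeR adjusted p = 0.00299), beside 0.04 for Mmrn1.

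Among 13 other pan-lymphatic genes 1 rose and 2 fell, with a median of 0.04. Clca3a1, a lymphatic surface protein of the chloride channel accessory family, was at 191.9 and 208.5 CPM in Tie1 Tie2 fl/fl and 8.76 and 9.63 CPM in Tie1 Tie2 iΔLEC (log2 fold change -4.48 ± 0.24, edgeR adjusted p = 0.000453). Nrp2, a coreceptor of VEGFR3, was at 423.2 and 422.7 CPM and at 144.2 and 142.2 CPM (-1.60 ± 0.27, edgeR adjusted p = 0.0314). Lyve1, a hyaluronan receptor of capillary LECs, was at 1574 and 1599 CPM and at 4004 and 3555 CPM (1.22 ± 0.21, edgeR adjusted p = 0.0403).

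The remaining lists had no called gene by edgeR. With Tie1/-2 deletion the median log2 fold change was -0.25 over 7 podoplanin partners such as Ccl21a and the ezrin, radixin, and moesin genes, -0.33 over 8 Thy-1 binding partners, mostly integrin subunits, -0.47 over 12 FXYD and Na,K-ATPase genes, and 0.03 over 18 tetraspanins and CD9 partners. DESeq2 called 6 list genes in this contrast, the 4 above with Itgb3, an integrin subunit that binds Thy-1, and Fxyd1.

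Across classes, 3 of the 5 genes had their lowest level in 1 valve-like cluster. Valve-like wells fell into 2 clusters, and this division, by leading genes, was made after the clusters were seen. The first (85 wells) was led by genes including Cd79a and Sbspon and had 7 of 8 valve markers raised, Foxc2 and Itga9 among them. The second (234 wells) was led by genes including Irx3 and Irx5, with 6 of 8. Since the 5 genes had been picked with a low level in valve LECs in view, the class levels are a description with no test. The share of all genes with their lowest level in the first cluster is not given, so 3 of 5 cannot be read as particular to these markers.

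In Cd79a Sbspon valve-like LECs Pdpn was at 222.5 and 123.7 CPM in Tie1 fl/fl, 33.6 and 10.2 CPM in Tie1 iΔLEC, and 117.8 and 133.5 CPM in Tie1 Tie2 fl/fl. The capillary-like wells of these 6 plates had between 525.4 and 751.5 CPM, so the classes did not overlap. The share of all genes that separate these classes, over plates or within them, is not given. Their separation thus cannot be read as particular to these markers. Mmrn1 was at 416.6 and 365.1 CPM in Tie1 fl/fl, 284.8 and 216.7 CPM in Tie1 iΔLEC, and 339.4 and 343.6 CPM in Tie1 Tie2 fl/fl, against 2654 CPM or more in capillary-like LECs. Thy1 was at 55.3 and 111.5 CPM, 25.1 and 11.1 CPM, and 22.2 and 29.3 CPM in the same order, against 153.3 CPM or more. Each value rests on 10 to 16 wells. The Tie1 Tie2 iΔLEC plates had 0 and 1 well of this cluster, which allowed no value.

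Within plates, the log2 difference of Cd79a Sbspon valve-like from capillary-like LECs was -3.06 ± 1.52 (SD, n = 6 plates) for Pdpn, -3.23 ± 0.36 for Mmrn1, and -2.56 ± 1.11 for Thy1, each lower on 6 of 6 plates. These means and SDs pool genotypes. On the 4 control plates the difference ran from -2.59 to -1.42 for Pdpn, -3.35 to -2.67 for Mmrn1, and -2.87 to -0.73 for Thy1. On the 2 Tie1 iΔLEC plates it was -3.93 and -5.68 for Pdpn, -3.33 and -3.73 for Mmrn1, and -3.08 and -3.99 for Thy1. Cd9 differed by -0.49 ± 0.23, also lower on 6 of 6, and Fxyd6 by 0.28 ± 0.19, lower on 1 of 6. Fxyd6 was thus no lower in this class: it averaged 1860 ± 179.7 CPM there and 1541 ± 198.4 CPM in the capillary-like LECs of the same plates (SD, n = 6). Irx3 Irx5 valve-like LECs lay in between for the first 3 genes, with -0.75 ± 0.57 for Pdpn (lower on 7 of 8 plates), -1.07 ± 0.31 for Mmrn1 (8 of 8), and -0.73 ± 0.26 for Thy1 (8 of 8). Their Fxyd6 and Cd9 differed from capillary-like LECs by 0.16 ± 0.20 and 0.02 ± 0.13. The share of all genes that differ between Irx3 Irx5 valve-like and capillary-like LECs on 8 of 8 plates is not given. These counts thus cannot be read as particular to these markers. Against all other LECs in place of the capillary-like class, a reference added after seeing the data, the Cd79a Sbspon differences were -2.78, -2.95, and -2.26 for Pdpn, Mmrn1, and Thy1.

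**Figure D3:**
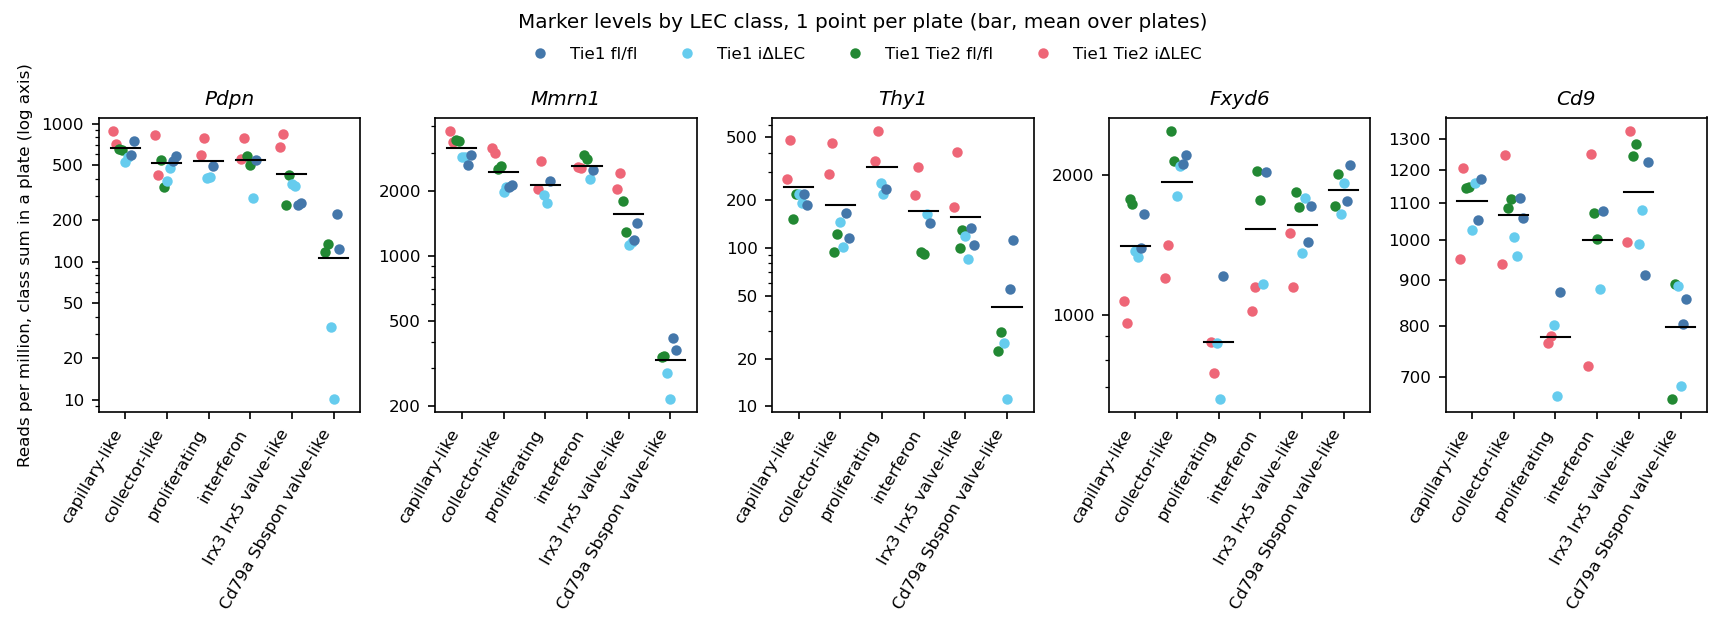
CPM of each gene summed over the wells of 1 LEC class on 1 plate (log axis), with 1 point per plate colored by genotype and a bar at the mean over plates. Pdpn, Mmrn1, and Thy1 were lowest in Cd79a Sbspon valve-like LECs (means of 106.9, 327.7, and 42.4 CPM), whereas Fxyd6 averaged 1860 CPM there.

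Single wells showed the same order. The median Cd79a Sbspon valve-like well had 23.5 CPM of Pdpn, 306.6 CPM of Mmrn1, and 8.33 CPM of Thy1, and the median capillary-like well 619.3, 3009, and 176.3 CPM. A Pdpn level of at least 100 CPM was reached by 24.7% of Cd79a Sbspon, 58.1% of Irx3 Irx5, 64.5% of collector-like, and 76.1% of capillary-like wells. All wells had passed a gate on PDPN protein, and 90.6% of the Cd79a Sbspon wells still held at least 1 Pdpn read. Over the 6 plates with a value this share ran from 56.25%, on replicate 2 of Tie1 iΔLEC, to 100%. The part of the plate in such shares was not tested. All 5 genes were read in 68.2% of Cd79a Sbspon wells, 90.2% of Irx3 Irx5 wells, and 95.1% of capillary-like wells, at medians of 275100, 233200, and 230300 reads per well.

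Over all 12 LEC classes the means of Pdpn, Mmrn1, and Thy1 spanned 7.94-fold, 10.5-fold, and 14.0-fold. The valve-like classes were the lowest for these 3 genes, so their ranges over the 10 other classes had to be narrower. That narrowing is no result in itself. The lowest and highest class of Fxyd6 and of Cd9 were not valve-like, so their range was that of all 12. Without the valve-like classes the means spanned 438.2 to 848.6 CPM for Pdpn (1.94-fold), 2145 to 3434 CPM for Mmrn1 (1.60-fold), 777.1 to 1327 CPM for Cd9 (1.71-fold), and 835.4 to 1933 CPM for Fxyd6 (2.31-fold). Thy1 spanned 172.0 to 595.1 CPM (3.46-fold), with the highest mean in a cluster of 60 wells that had at least 10 wells on 2 plates only, both Tie1 Tie2 iΔLEC. This cluster also had the lowest Fxyd6 and the highest Cd9 mean. It was the upper end of the 14.0-fold range of Thy1, whose lower end came from 6 plates of the other genotypes. Class and genotype cannot be told apart in these ranges. The means of this cluster rest on 17 and 11 wells of these 2 plates. Over all 60 wells, other plates included, the median well had 186.1 CPM of Thy1 and 1569 CPM of Fxyd6. The median capillary-like well had 176.3 and 1510 CPM. Fxyd6 was highest in collector-like LECs, 0.45 ± 0.16 log2 units above capillary-like LECs and higher on 8 of 8 plates. Pdpn and Mmrn1 were lower in collector-like than in capillary-like LECs on 8 of 8 plates, by -0.40 ± 0.28 and -0.39 ± 0.12. Cd9 differed by -0.06 ± 0.11, less than its spread. The share of all genes that differ between collector-like and capillary-like LECs on 8 of 8 plates is not given. The classes came from clustering the same wells, so these counts cannot be read as particular to these markers. Cd9 and Fxyd6 were both low in proliferating LECs, at 777.1 ± 74.3 and 875.1 ± 210.2 CPM (n = 5 plates).

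Pdpn, Mmrn1, and Thy1 varied together across clusters. Over 89 sums of a plate and a cluster, with the plate mean removed, Pearson's r was 0.81 for Pdpn and Mmrn1, 0.81 for Mmrn1 and Thy1, and 0.75 for Pdpn and Thy1. Without the 6 sums of the Cd79a Sbspon cluster these were 0.42, 0.44, and 0.25. Fxyd6 had an r of -0.26, -0.16, and -0.33 with Pdpn, Mmrn1, and Thy1, and 0.28 with Cd9. The sums share plates and libraries, so the coefficients are descriptions.

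Likeness to each member was ranked over all 89 sums, those of the Cd79a Sbspon cluster included, and no ranking without them is given. Among 9815 genes that averaged 10 CPM or more, the 3 most like Mmrn1 were Ltbp4 (r = 0.93), Flt4 (0.91), and Stab1 (0.90). They encode a latent TGF-β binding protein, VEGFR3, and a scavenger receptor. Those most like Pdpn were Ntn1 (0.83), Ccnd1 (0.82), and Mmrn1 (0.81), and those most like Thy1 were Mmrn1, Adgrg3, and Piezo2 (0.81 each). Fxyd6 was most like the tight-junction gene Cldn5 (0.75), the connexin gene Gja4 (0.71), and Itm2b (0.68). Cd9 was most like Gm26728 (0.94), followed at a distance by Ephx1 (0.57) and Gm26892 (0.56). Gm26728, at 182.7 CPM, lies at chr6:125494424-125509135 on the plus strand and overlaps the start of Cd9 by 368 bases. The use of strand in counting was not given, so reads of these 2 genes cannot be told apart in the overlap.

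Promoter sequence was compared because 3 of the genes shared a low level in 1 class and 2 did not. RefSeq sequence of GRCm38.p6 was at hand for Pdpn, Mmrn1, Fxyd6, and Cd9, and Thy1 had no entry. The 200 bases from 250 to 51 bases before each RefSeq start are given below on the strand of the gene, 5′ to 3′, with capitals on each match to 1 of 6 short motifs searched on both strands. Pdpn is shown at chr4:143299615-143299814 (minus), Mmrn1 at chr6:60944067-60944266 (plus, inside the longer GENCODE gene), Fxyd6 at chr9:45369935-45370134 (plus), and Cd9 at chr6:125494811-125495010 (minus).
Pdpn: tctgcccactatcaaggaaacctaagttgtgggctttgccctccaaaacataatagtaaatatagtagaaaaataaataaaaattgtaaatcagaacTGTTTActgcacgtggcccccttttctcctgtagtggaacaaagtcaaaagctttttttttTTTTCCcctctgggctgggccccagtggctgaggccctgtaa
Mmrn1: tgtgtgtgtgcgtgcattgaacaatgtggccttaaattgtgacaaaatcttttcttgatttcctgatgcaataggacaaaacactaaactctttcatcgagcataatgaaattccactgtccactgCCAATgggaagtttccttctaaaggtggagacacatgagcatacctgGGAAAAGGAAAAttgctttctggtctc
Fxyd6: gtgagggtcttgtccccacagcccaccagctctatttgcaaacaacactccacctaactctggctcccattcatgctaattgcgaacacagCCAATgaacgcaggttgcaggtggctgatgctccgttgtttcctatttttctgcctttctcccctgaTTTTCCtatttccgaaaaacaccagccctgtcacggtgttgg
Cd9: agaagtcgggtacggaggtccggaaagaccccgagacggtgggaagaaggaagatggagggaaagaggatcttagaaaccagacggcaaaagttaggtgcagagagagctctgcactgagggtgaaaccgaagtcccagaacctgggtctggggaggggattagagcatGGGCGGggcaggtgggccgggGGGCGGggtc

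Over 32851 windows of the same length, 10.3% held TGTTTA, a motif of forkhead factors, and 5.49% held GATAAG, a motif of GATA factors. The NFAT motif GGAAAA was in 17.1% of windows and the ETS motif CGGAAG in 9.25%. The SP motif GGGCGG was in 24.6% and the NF-Y motif CCAAT in 28.4%. Pdpn held TGTTTA once and GGAAAA once on the reverse strand, where it reads TTTTCC. Mmrn1 held GGAAAA in 2 adjoining copies and CCAAT once, and Fxyd6 held CCAAT once and GGAAAA once on the reverse strand. Cd9 held GGGCGG in 2 copies and none of the other motifs. The Cd9 window had 10 CG dinucleotides, Fxyd6 5, Mmrn1 2, and Pdpn 1, against a median of 4 over all windows. GGAAAA was thus in the windows of Pdpn and Mmrn1 and also in that of Fxyd6, which was not low in the valve-like class, and no matches overlapped.

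The droplet libraries placed the 5 genes among other skin cells. Of 6401 cells kept, 2077 were LECs (1325 with IgG, 752 with Ang2 Ab), 2484 were blood endothelial cells (BECs), and 1344 stayed unnamed. With 1 library per treatment there is no test, and the intervals given (exact Poisson, 95%) cover counting error only; CPM are here UMIs per 1000000 UMIs. In LECs of the IgG library Pdpn was at 245.6 CPM (238.4 to 252.9), Mmrn1 at 1962 CPM, Thy1 at 326.8 CPM, Fxyd6 at 803.5 CPM, and Cd9 at 1891 CPM. In BECs of this library Pdpn was at 4.72 CPM (3.58 to 6.10), Mmrn1 at 51.8 CPM, Thy1 at 19.2 CPM, Fxyd6 at 32.9 CPM, and Cd9 at 664.7 CPM.

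The ratio of LECs to BECs was 52.0 (IgG) and 62.6 (Ang2 Ab) for Pdpn, 37.9 and 68.2 for Mmrn1, 24.4 and 38.2 for Fxyd6, 17.0 and 20.1 for Thy1, and 2.84 and 2.64 for Cd9. Cd9 was therefore not restricted to LECs. It was read in 88.1% of BECs, at 1376 CPM in keratinocyte-like cells, and at 3422 CPM in 28 Schwann-like cells, above the 1812 CPM of LECs. Thy1 was at 219.0 CPM (206.7 to 232.0) in 400 mural cells of both libraries, above BECs at 20.6 CPM and below LECs at 368.7 CPM. Pdpn, Mmrn1, and Fxyd6 were at 3.18, 47.9, and 42.9 CPM in these mural cells.

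Valve-like LECs of the droplet libraries were divided by the same gene pairs into 2 kinds, and the same 3 genes were low in the first. The members had been picked with a low level in valve LECs in view for these libraries too. The droplet values are therefore a description and no second test of the plates. Pdpn was at 16.7 CPM (11.3 to 23.8) with IgG and 39.4 CPM (29.0 to 52.5) with Ang2 Ab in Cd79a Sbspon valve-like LECs, and at 311.7 and 243.1 CPM in capillary-like LECs. Mmrn1 was at 254.5 and 207.3 CPM, against 2648 and 3100 CPM. Thy1 was at 80.6 and 70.5 CPM, against 425.6 and 575.3 CPM. Fxyd6 went the other way, at 1251 and 1182 CPM against 686.4 and 463.6 CPM, a ratio of 1.82 (1.74 to 1.91) with IgG and 2.55 (2.39 to 2.72) with Ang2 Ab. Cd9 was at 1582 and 1595 CPM, against 1901 and 1613 CPM.

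Even at their lowest, these genes stayed above the level in BECs. With IgG the ratio of Cd79a Sbspon valve-like LECs to BECs was 3.53 (2.19 to 5.58) for Pdpn, 4.91 (4.34 to 5.54) for Mmrn1, and 4.195 (3.39 to 5.18) for Thy1, and with Ang2 Ab it was 11.7, 6.01, and 3.17. Irx3 Irx5 valve-like LECs had Pdpn at 172.6 and 259.0 CPM, Mmrn1 at 993.6 and 1424 CPM, and Thy1 at 241.1 and 342.0 CPM. Their Pdpn was below capillary-like LECs with IgG (ratio 0.55, 0.48 to 0.63) but not with Ang2 Ab (1.07, 0.93 to 1.22), and Mmrn1 and Thy1 were below them in both libraries.

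Shares of cells with a UMI were compared after thinning each cell to 3000 UMIs. Over both libraries Pdpn was found in 5.47% of Cd79a Sbspon and 35.7% of Irx3 Irx5 valve-like LECs, 53.5% of capillary-like LECs, and 0.72% of BECs, the cells expected to lack it. Before thinning these shares were 17.1%, 57.5%, 85.8%, and 1.93%, at median depths of 9309, 11540, 12600, and 8168 UMIs per cell. Thinned shares of Mmrn1 were 32.1%, 83.5%, 98.4%, and 7.33% in the same classes, and those of Thy1 16.1%, 50.6%, 68.0%, and 4.25%. Fxyd6 was found in 94.9%, 74.7%, 71.8%, and 4.60%, and Cd9 in 96.7%, 99.5%, 96.1%, and 75.9%.

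**Figure D4:**
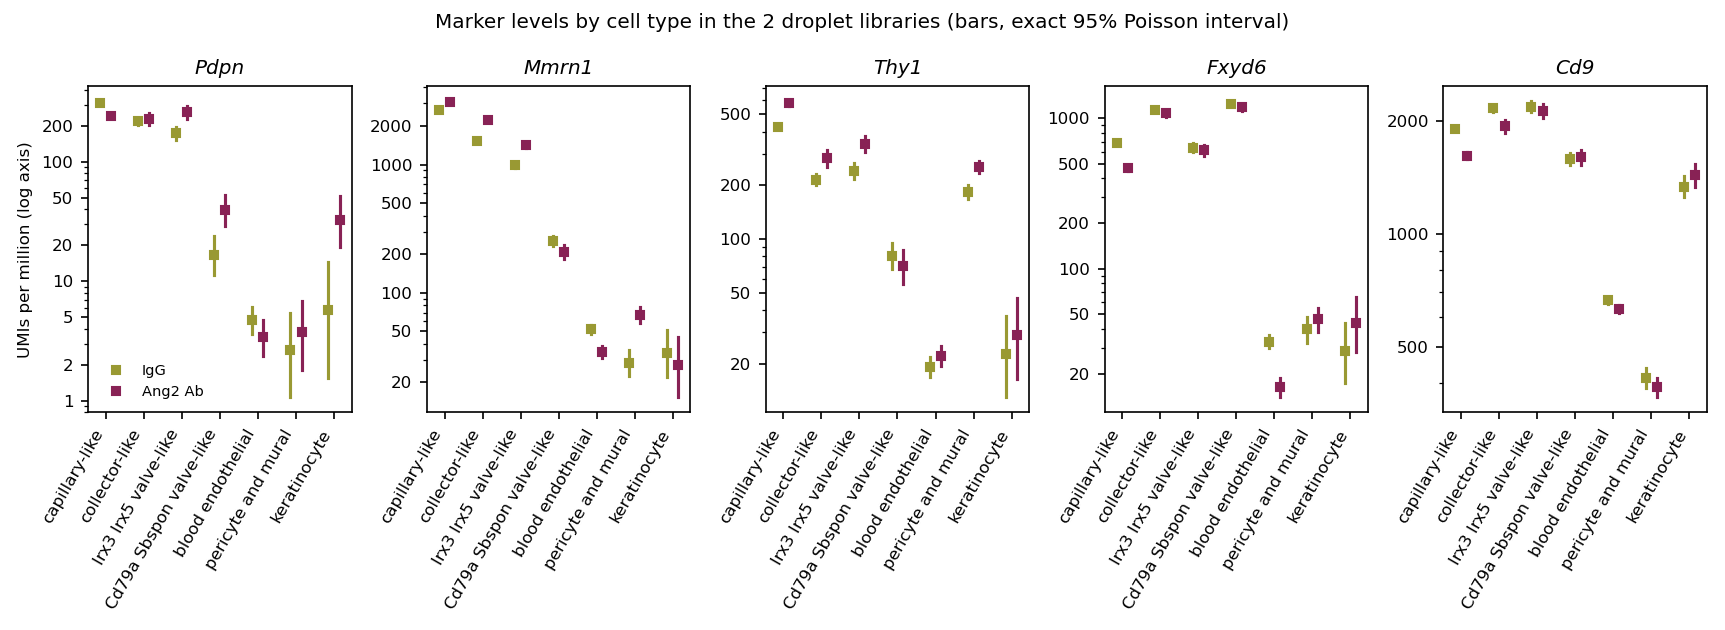
CPM of each gene (log axis) by cell type in the IgG and the Ang2 Ab library, with exact 95% Poisson intervals as vertical lines. Pdpn, Mmrn1, and Thy1 were low in Cd79a Sbspon valve-like LECs in both libraries, Fxyd6 was not (1251 and 1182 CPM), and Cd9 was high outside the lymphatic endothelium, as in keratinocyte-like cells.

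Cd79a Sbspon valve-like LECs were 11.8% of LECs with IgG and 16.6% with Ang2 Ab in libraries sorted on CD31, and 3.15% to 4.71% of LECs on the 6 plates with a value, which were sorted on CD31 and PDPN. Platform, gate, age, and strain differ together between these sets, and their parts in the shares cannot be told apart. On the Tie1 Tie2 iΔLEC plates the share was 0% and 0.279%.

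Between the 2 antibody libraries, the ratio of Ang2 Ab to IgG over all LECs was 0.86 (0.82 to 0.91) for Pdpn, 1.20 (1.18 to 1.22) for Mmrn1, 1.37 (1.31 to 1.42) for Thy1, 0.78 (0.75 to 0.80) for Fxyd6, and 0.88 (0.86 to 0.90) for Cd9. These values lay inside the range from the 5th to the 95th percentile of 10815 genes with at least 100 UMIs, 0.70 to 1.38. Thy1 was near its upper end, with 94.5% of genes at a lower ratio, and Fxyd6 near its lower end, with 8.95%. The counting intervals are narrow, but the spread between libraries is not known, so no difference can be assigned to the antibody.

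By class, Thy1 was at a ratio of 1.35 (1.29 to 1.42) in capillary-like, 1.32 (1.16 to 1.503) in collector-like, and 1.42 (1.22 to 1.65) in Irx3 Irx5 valve-like LECs, and at 0.88 (0.66 to 1.15) in Cd79a Sbspon valve-like LECs. Fxyd6 was at 0.68 (0.65 to 0.71) in capillary-like LECs, where 4.22% of genes had a lower ratio, and between 0.95 and 0.96 in the other 3 classes. Mmrn1 was at 1.46 (1.39 to 1.53) in collector-like LECs. Pdpn was at 0.78 (0.73 to 0.83) in capillary-like and 1.501 (1.26 to 1.79) in Irx3 Irx5 valve-like LECs. Its ratio of 2.37 (1.47 to 3.88) in Cd79a Sbspon valve-like LECs rests on 30 and 47 UMIs. The 99.8% of genes that were lower each had at least 100 UMIs. Pdpn did not reach this, so its rank there is not a like comparison. In Irx3 Irx5 valve-like LECs 96.9% of genes had a lower ratio than Pdpn, 95.6% than Mmrn1 (1.43), and 95.2% than Thy1. Among the classes compared, Pdpn, Mmrn1, Thy1, and Fxyd6 thus each left the range from the 5th to the 95th percentile in at least 1 class. Of these classes, Thy1 did so only in Irx3 Irx5 valve-like and Fxyd6 only in capillary-like LECs. Proliferating LECs, given below, were not among them. Cd9 stayed inside the range in each class, with 16.6% to 53.7% of genes at a lower ratio. A fixed share of genes lies outside that range by definition.

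The capillary-like class joined 2 clusters, of 367 and 349 cells with IgG and 241 and 167 cells with Ang2 Ab. The Thy1 ratio was 1.22 and 1.45 in these clusters and the Fxyd6 ratio 0.72 and 0.66, whereas that of Mmrn1 was 1.01 in the first and 1.35 in the second. The proliferating class was left out of the comparison by class, since Mmrn1 was found in 85.5% of its cells with IgG and 44.7% with Ang2 Ab. Its 69 cells with IgG and 38 with Ang2 Ab were part of the ratios over all LECs. Their ratios were 0.43 for Fxyd6, 0.66 for Pdpn, 0.79 for Cd9, 0.90 for Mmrn1, and 1.45 for Thy1. Fxyd6 was thus also outside the range in proliferating LECs, where the 5th percentile was 0.62 and 1.46% of genes had a lower ratio. Collector-like cells were 276 of 1325 LECs with IgG and 103 of 752 with Ang2 Ab. The part of class shares in the ratios over all LECs was not tested.

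**Figure D5:**
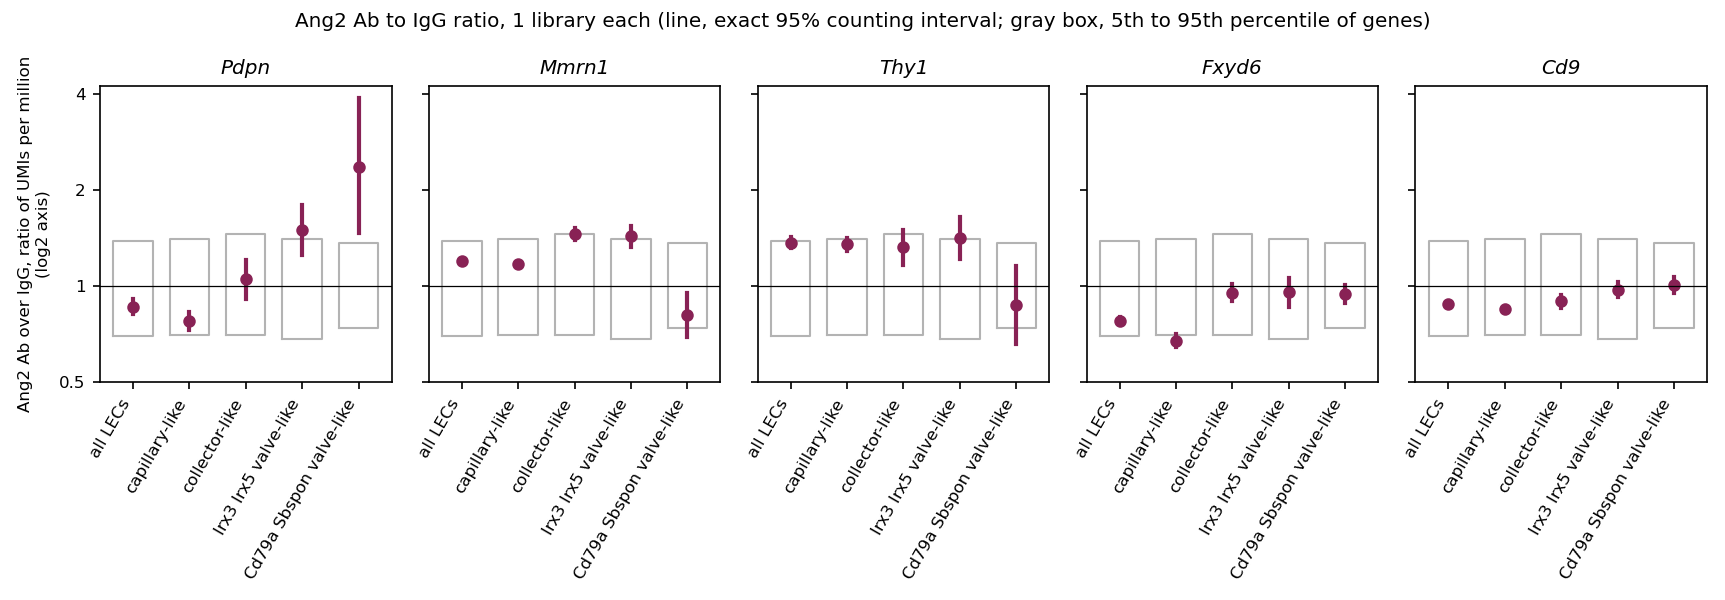
Ratio of CPM with Ang2 Ab over IgG (log2 axis) in all LECs and in 4 LEC classes, 1 library each, with exact 95% counting intervals as lines and gray boxes from the 5th to the 95th percentile of genes in the class. In all LECs the 5 ratios, from 0.78 for Fxyd6 to 1.37 for Thy1, lay inside the box.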

How the data were processed

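For the plates the authors deposited raw read counts by gene and well, and for the droplet libraries filtered UMI counts. The submitters' processing notes name TopHat2 2.1.1, SAMtools 0.1.18, featureCounts, and the builds GRCm38 and mm10. They give Cell Ranger 2.1.1, whereas the matrix header gives 6.0.2. The title of the Ang2 antibody library holds the word control, and its treatment label was followed. Plate tables came in 2 layouts and were joined on 42558 genes holding 95.8% to 97.1% of the counts; spike-in rows, on 4 plates, were 0.0832% to 0.155% of counts and were left out. Wells were kept from 1000 detected genes, and cells from 500 and with a mitochondrial share of UMIs up to 10%. Clustering used scanpy 1.11.5 (Leiden resolution 1.0) without the 5 genes, clusters were named from marker lists, and fibroblast-like (237 wells) and keratinocyte-like (33) clusters were removed. Scrublet marked 0.582% and 0.0675% of cells as doublets, too few to rely on for the second library, so none were removed.

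Counts were summed over the LEC wells of a plate and tested with edgeR 4.0.16 (R 4.3.3; TMM, filterByExpr, quasi-likelihood F test, all 8 plates in 1 fit, threshold 0.05); DESeq2 1.42.0 and limma 3.58.1 served as alternatives. The script was checked on simulated data. Droplet libraries held 42337184 (IgG) and 31720670 (Ang2 Ab) UMIs. Intervals there cover counting error only. The genes named were all 5 members, Tie1 and Tek, list genes called (at most 4 per list), and the 3 genes most like each member. Members and lists were chosen with earlier results of these data known.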

Additional observations from a re-analysis of the deposited data

Results flagged for a closer look

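Among the 61 list genes tested, 2 differed between the deletions by the edgeR test of the difference itself, where 26 of 19931 genes (0.13%) were called. The lists were chosen with earlier results of these data known, so an excess over this share is no result about the lists. The log2 effect of Tie1/-2 deletion minus that of Tie1 deletion was -3.62 ± 0.30 (SE) for Clca3a1 (edgeR adjusted p = 0.00945) and -3.38 ± 0.45 for Mmrn2 (edgeR adjusted p = 0.0488). Clca3a1 was at 113.6 and 120.2 CPM in Tie1 iΔLEC, below the 216.0 and 204.4 CPM of Tie1 fl/fl, and at 8.76 and 9.63 CPM in Tie1 Tie2 iΔLEC. Mmrn2 was at 222.0 and 297.7 CPM in Tie1 iΔLEC, below the 352.7 and 352.1 CPM of Tie1 fl/fl, and at 33.4 and 17.2 CPM in Tie1 Tie2 iΔLEC. Collector-like wells, which Mmrn2 was used to name, numbered 10 and 12 on the Tie1 Tie2 iΔLEC plates and 41 to 76 on the others, and the part of these shares was not tested.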

How the results depend on the processing

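No member was called with Tie1 deletion or in the average effect under any alternative. With Tie1/-2 deletion, where no member and 228 of 19931 genes were called, 2 were under DESeq2 (1014 genes) and 2 with table layout as a term (236 genes), Thy1 and Fxyd6 in both. Thy1 was the 1 called without a filter on low counts (1183 of 30505 genes) and the 1 with the replicate block (174 genes), and 0 to 1 were with a plate left out (79 to 219 genes). The block used replicate numbers within a strain. Same-numbered plates of a strain had the same table layout, in the Tie1 strain also the same sex, and deviated together (r = 0.289 and 0.324). No label gave them a shared litter or day, and with 2 pairs per strain the pairing is a hint from the data. For the difference, DESeq2 and no filter each called 1 (Thy1), among 443 and 605 genes. Within classes, DESeq2 called 3 and no filter 3, each with Tie1/-2 deletion, and these were not the same 3. DESeq2 called Thy1 in collector-like and Pdpn and Thy1 in valve-like LECs. Without a filter Fxyd6 was called in capillary-like and in collector-like LECs and Pdpn in valve-like LECs. That setting called 233 of 24702 genes in capillary-like, 342 of 24351 in collector-like, and 176 of 24013 in valve-like LECs. List genes called with the deletions, 4, became 7 under DESeq2 and 7 without a filter, and 2 to 4 with a plate left out (2 without any 1 of the 4 Tie1 Tie2 plates). The cause was not tested.

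With a plate left out, log2 values near 0 changed sign: for Tie1 deletion Pdpn from -0.54 to 0.0022, Mmrn1 from -0.25 to 0.13, Thy1 from -0.28 to 0.039, and Cd9 from -0.32 to 0.013; for Tie1/-2 deletion Cd9 from -0.23 to 0.087; for the difference Mmrn1 from -0.098 to 0.28 and Cd9 from -0.066 to 0.28; for the average Pdpn from -0.051 to 0.28 and Mmrn1 from -0.078 to 0.075. Mmrn1 in the average was 0.0068 without a filter. Pdpn, Mmrn1, and Thy1 were at least 2-fold lower in Cd79a Sbspon valve-like than capillary-like LECs in all 14 alternatives with a value, whereas Leiden resolution 0.5 and clustering without the members and the called genes gave no such division, the latter with 1 valve-like cluster of 390 wells. In the droplet libraries 2 to 3 of them were. No Ang2 Ab ratio over all LECs left the 5th to 95th percentile in 6 alternatives. Each genotype had 2 plates.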

Other observations

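Wells left out of the LECs still carried the 5 genes. In the 237 fibroblast-like wells, which had a median of 17810 reads against 217400 in LEC wells, Pdpn was at 448.6 CPM, Mmrn1 at 2302 CPM, Thy1 at 204.4 CPM, Fxyd6 at 1637 CPM, and Cd9 at 1208 CPM, each inside the range of the 8 plates of LEC wells. Their Prox1 and Flt4, which encode the lymphatic transcription factor and VEGFR3, were at 631.0 and 1394 CPM. In the 33 keratinocyte-like wells Pdpn was at 477.3 CPM, Mmrn1 at 2083 CPM, Thy1 at 160.9 CPM, Fxyd6 at 1234 CPM, and Cd9 at 1145 CPM. Droplet keratinocyte-like cells, in contrast, had Pdpn at 17.5 CPM and Mmrn1 at 31.0 CPM, so these plate wells carried lymphatic transcripts next to the markers that named them.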
